A study of Mus musculus with 2 samples.

Results

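The cells described here are liver macrophages that carried Clec4f, the lectin gene that marks Kupffer cells, together with more transcripts of Mmp12 and Cd207 than of Marco and Cd163. They numbered 160 of the 6440 cell barcodes of the 2 deposited single-cell libraries, 151 in the control library and 9 in the glutamine synthetase knockout (GS-KO) library. Transcripts were counted as unique molecular identifiers (UMIs). Barcodes entered the selection if they reached 500 UMIs and 200 genes while no more than 20% of UMIs were mitochondrial. A kept barcode was taken as one of these macrophages when C1qa, C1qb and C1qc together made up at least 1% of its UMIs, its total was at least 3000 UMIs and Clec4f made up at least 0.05% of its UMIs. It also had to have fewer than 5 UMIs of the division genes Mki67 and Top2a and fewer than 3 UMIs of Cx3cr1, Ccr3 and Gfra2, and its UMIs of Mmp12 and Cd207 had to outnumber those of Marco and Cd163. They are called the Mmp12/Cd207 macrophages below. The cells were thus chosen by their own counts of the C1q genes, Clec4f, Mki67, Top2a, Cx3cr1, Ccr3, Gfra2, Mmp12, Cd207, Marco and Cd163, so the levels of these genes are given as a description and carry no test.

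Both libraries came from the livers of tumour-bearing mice with floxed alleles of Glul (Glul f/f), the gene for glutamine synthetase, and the series concerns β-catenin-mutant hepatocellular carcinoma. The virus was AAV8-GFP in the control mouse, AAV8-Cre in the other, and cells were taken 7 weeks after it. Each group was 1 mouse and 1 library, so no difference between the groups has a replicate check, and virus, mouse and library cannot be told apart. AAV8 delivers its cargo mainly to hepatocytes, so macrophages are not the cells in which the deletion was chiefly made. Cells were enriched on anti-F4/80 beads and depleted of dead cells before loading, and F4/80 is the product of Adgre1, so the share of macrophages was set by that step.

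Glul, which turns glutamate and ammonia into glutamine, was present in 137 of 151 control cells and in 6 of 9 GS-KO cells. Its level summed over control cells was 239.5 CPM (UMIs of the gene per 1000000 UMIs of the cells), against 237 CPM over GS-KO cells, a ratio of 0.989-fold (95% counting interval 0.648 to 1.45). Per control cell Glul ranged from 0 through a median of 212 to 676 CPM, and the 9 GS-KO cells, from the most to the least deeply sequenced, held 6, 8, 5, 0, 4, 3, 0, 1 and 0 Glul UMIs. The groups overlapped. The 3′ end that the assay counts may lie outside the deleted part, and these are macrophages, so the value does not check the labels. Here and below, a counting interval is computed from the UMIs alone and covers counting error only, not the spread between mice.

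Kupffer cells are the resident macrophages of the liver sinusoids, where they take up particles, lipoproteins and ageing red cells, and Clec4f is restricted to them in the mouse. Macrophages that meet lipid-rich debris in obese fat, steatotic liver or tumours turn on Trem2, a lipid-sensing receptor, with Gpnmb, Cd9, Fabp5, Lgals3 and Cd63, a set named lipid-associated macrophage genes. Mmp12 encodes macrophage elastase, which cleaves elastin and other matrix proteins, and Cd207 encodes langerin, the C-type lectin best known from Langerhans cells of the skin. Marco and Cd163 are scavenger receptors, for particles and for haemoglobin-haptoglobin complexes.

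In the annotation of the mm10 build (GRCm38), Clec4f (ENSMUSG00000014542) lies at chr6:83644542-83656187 and Cd207 (ENSMUSG00000034783) at chr6:83671215-83677857, both on the minus strand and 15027 bases apart. Mmp12 (ENSMUSG00000049723) lies at chr9:7344381-7369499 on the plus strand, beside Mmp13 at chr9:7272514-7283331. The 250 bases before the annotated start of Cd207, and those before the downstream of the 2 annotated starts of Mmp12, are printed. The reason is that they are the promoters of the genes that defined the cells and that both hold the letters TGANTCA. This pattern, with any base at N, was the search used here for the motif of the AP-1 (Fos and Jun) factors. Both stretches are read from the RefSeq promoter table of GRCm38.p6, 5′ to 3′ on the gene's strand, with the motif in capitals. The Cd207 stretch is chr6:83677858-83678107 on the minus strand and lies upstream of the gene. The Mmp12 stretch is chr9:7347124-7347373 on the plus strand and lies within the first intron of the longer Mmp12 model. The stretch before the upstream start of Mmp12 and that before Clec4f, which the rule also used, hold no match and are not printed.
Cd207: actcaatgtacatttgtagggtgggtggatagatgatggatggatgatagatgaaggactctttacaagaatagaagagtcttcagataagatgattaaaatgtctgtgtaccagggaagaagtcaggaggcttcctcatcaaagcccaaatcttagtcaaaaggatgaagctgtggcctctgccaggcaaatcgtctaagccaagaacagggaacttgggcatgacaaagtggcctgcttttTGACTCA
Mmp12: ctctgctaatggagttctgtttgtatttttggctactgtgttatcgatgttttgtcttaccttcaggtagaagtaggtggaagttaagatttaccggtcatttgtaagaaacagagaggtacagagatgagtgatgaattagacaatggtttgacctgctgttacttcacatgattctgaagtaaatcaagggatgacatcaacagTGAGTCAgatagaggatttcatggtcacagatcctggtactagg

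The same motif stood before 3 more of the genes that were higher in these macrophages than in the Marco/Cd163 macrophages introduced below, namely Il1rn, Mmp13 and Ccl9. The motif with 10 bases on each side is shown for all 5 genes, because they are the promoters in which the search matched, with the motif in capitals. The motif is its own reverse complement, so both strands were searched at once.
Cd207: gcctgcttttTGACTCAtttcccgttt
Mmp12: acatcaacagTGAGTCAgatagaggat
Mmp13: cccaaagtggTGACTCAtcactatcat
Ccl9: ttactctctcTGAATCAatttgaactt
Il1rn: tctgctagacTGAGTCAcgcctctgga
Its first base lay 7 bases before the start in Cd207, 44 in Mmp12, 35 in Mmp13, 53 in Ccl9 and 141 in Il1rn. The middle base was A in Ccl9 and C or G in the other genes, and the counts below allow any middle base. Besides all promoters, only named genes were counted, the 15 ranked first each way of 164 higher and 36 lower in both libraries. So the shares do not describe all higher or lower genes. The motif occurred in 5 of 16 promoters (31.3%) of the 13 named higher genes that had one in the table. It occurred in 2 of 15 (13.3%) of the named lower genes and in 2217 of 32851 (6.75%) of all promoters. Without the genes of the rule, which were higher or lower by choice, it occurred in 3 of 13 (23.1%) and 1 of 12 (8.33%). Among the genes named against the second set of cells below it occurred in 1 of 14 promoters (7.14%) of the higher genes and in 4 of 16 (25%) of the lower genes, or in 0 of 12 and 3 of 12 without the genes of the rule. The E-box CACGTG and the PU.1 letters GAGGAAGT, also searched on both strands, were found in 0 and 2 of the 16 promoters and in 6.02% and 2.44% of all. The PU.1 matches were in Mmp12, a gene of the rule, and in Retnla, whose 690 control UMIs all came from 1 cell. Without the genes of the rule, PU.1 was found in 1 of 13. Of 74 named genes, 61 had a promoter in the table. A match is a description of the sequence and not a binding site shown here.

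The rule left 3275 control and 662 GS-KO barcodes after the quality limits, and 1149 and 69 of them were deep enough and had C1q at 1% or more. Of these, 789 and 45 were Clec4f-positive and not dividing, and 215 and 13 had fewer than 3 UMIs of Cx3cr1, Ccr3 and Gfra2. That last group split into the 151 and 9 Mmp12/Cd207 macrophages, 36 and 3 cells with more Marco and Cd163 (the Marco/Cd163 macrophages) and 28 and 1 ties. The Mmp12/Cd207 macrophages were thus 70.2% (exact Clopper-Pearson 95% interval 63.6 to 76.3) of the control Clec4f-positive cells past every other step, against 69.2% (38.6 to 90.9) for GS-KO. Of all non-dividing Clec4f-positive macrophages they were 19.1% (16.4 to 22.1) and 20% (9.58 to 34.6), and of all kept barcodes 4.61% (3.92 to 5.39) and 1.36% (0.623 to 2.57). The first pairs of shares differed by less than their counting intervals. The share of kept barcodes was lower in the GS-KO library, where C1q-positive cells of any kind were also fewer, 88 of 662 against 1326 of 3275.

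Clec4f made up a median of 6132 CPM of the control cells, with a lowest value of 589 and a highest of 19263 CPM. Mmp12 was counted in 136 of 151 control cells, with 0 CPM in the lowest, 734 in the median and 10543 in the highest cell. Cd207 was counted in 103 of 151, with 0, 81.0 and 4583 CPM. Both genes were present in 88 cells, Mmp12 alone in 48 and Cd207 alone in 15, and Mmp12 had more UMIs than Cd207 in 112 cells, fewer in 35 and as many in 4. So the cells were not a uniform double-positive group, and Mmp12 carried most of the rule. In the GS-KO library the 9 cells, from the most to the least deeply sequenced, held 113, 19, 70, 113, 7, 13, 1, 2 and 10 UMIs of Mmp12 and 31, 51, 0, 11, 5, 0, 1, 0 and 1 of Cd207, with 26350, 23671, 16899, 14299, 9743, 7219, 5863, 5569 and 4318 UMIs in all. The 4 deepest of them held most of the UMIs of both genes.

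At the edge of the rule, 11 control cells had only 1 UMI more of Mmp12 and Cd207 than of Marco and Cd163, 22 had 2 to 5 more and 118 had over 5 more. Just outside it, 25 of the 28 ties had 0 UMIs of all 4 genes, and 13 of the Marco/Cd163 macrophages had only 1 UMI more of Marco and Cd163. The limit on Cx3cr1, Ccr3 and Gfra2 was also close: 28 control cells had 2 UMIs of these genes, and 42 of the 574 Clec4f-positive cells it removed had 3. Of those 574 cells, 203 (35.4%) also had more Mmp12 and Cd207 than Marco and Cd163, as had 12 of 32 in the GS-KO library. The depth limit removed 21 control and 1 GS-KO cells that met every other step, and the mitochondrial limit 3 and 0.

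**Figure D1:**
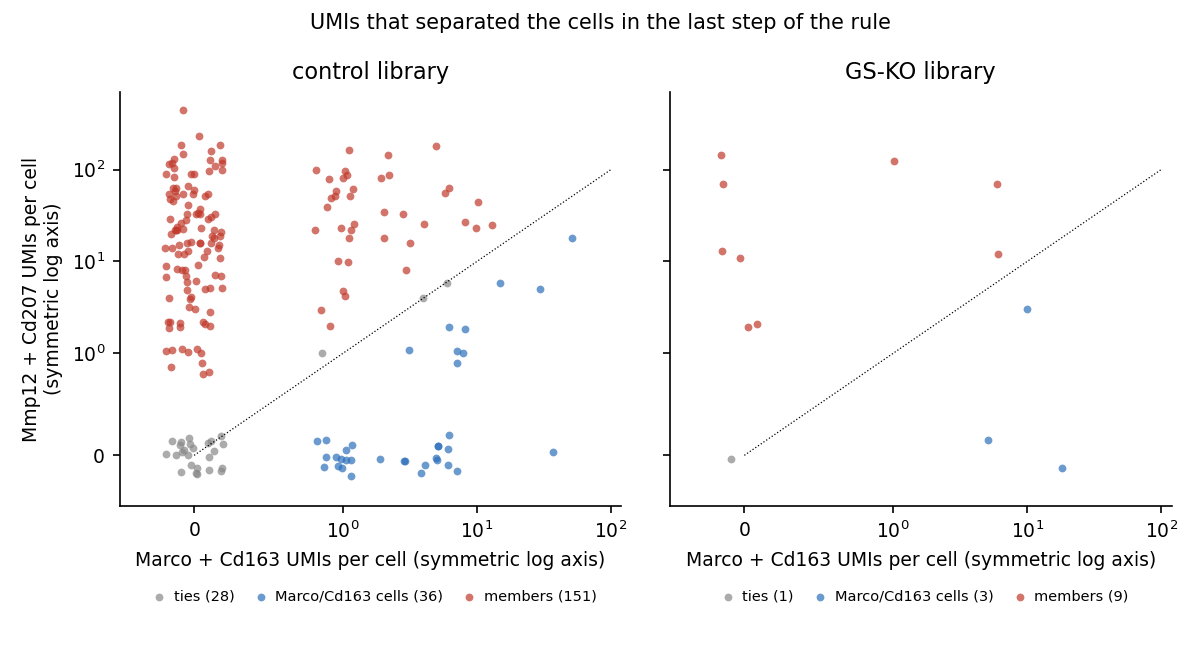
UMIs per cell of Mmp12 plus Cd207 (vertical) against Marco plus Cd163 (horizontal), both on symmetric log axes, for the Clec4f-positive cells past every other step, control at the left and GS-KO at the right; each point is 1 cell, moved slightly at random so that points do not hide each other, and members are the Mmp12/Cd207 macrophages. The 151 and 9 members lie above the dotted line of equality, and 112 of the 151 control cells had no UMI of Marco or Cd163.

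The label was checked against markers of other cell types. Of 9 Langerhans and dendritic cell genes (Epcam, Flt3, Zbtb46, Ccr7, Xcr1, Clec9a, Cd209a, Siglech and Dcstamp), 6 were at 0 in the 151 control cells and the list summed to 27 UMIs, and all 9 were at 0 in the GS-KO cells. The 6 monocyte genes, among them Ly6c2 and Ccr2, summed to 8 and 0 UMIs, the 6 T and NK cell genes to 5 and 0, the 4 stellate cell genes to 18 and 0 and the 6 neutrophil genes to 164 and 6. The 4 B cell genes summed to 73 UMIs in the control, 28 of them in 1 cell, and to 0 in the GS-KO cells. The 3 platelet genes summed to 173 and 4 UMIs, of which Pf4 gave 171 and 4, with 63 in 1 control cell, while Ppbp and Itga2b had 1 control UMI each. Endothelial genes other than Cdh5, which Kupffer cells express, summed to 95 and 25 UMIs, and all 25 came from 1 GS-KO cell, the eighth by depth, which also held 35 UMIs of Sparc, 20 of Gpihbp1 and 11.6% mitochondrial UMIs. Of the macrophages, 13 control and 1 GS-KO cells had 5 or more UMIs of neutrophil, B, T and NK or endothelial genes, or 18 and 1 with platelet genes, and values without them are given where they differ. The cells therefore had the macrophage and Kupffer genes of the rule, with defining genes of Langerhans cells at or near 0.

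The control library held 64770011 and the GS-KO library 8805330 UMIs, and the Mmp12/Cd207 macrophages held 3164452 and 113931 of them. Per control cell they had from 3394 through a median of 21809 to 42403 UMIs, and per GS-KO cell from 4318 through 9743 to 26350, with medians of 4117 and 2336 genes and 3.15% and 2.73% mitochondrial UMIs. Over all barcodes the median mitochondrial share was 5.61% for the control, against 25.3% for GS-KO. The labels give at least 7500 cells as sequenced, and the matrices hold 5074 and 1366 barcodes. Scrublet, a doublet caller, was run on the kept barcodes. It marked 24 of 3275 in the control and 7 of 662 in the GS-KO library, too few to be read as working. Of the Mmp12/Cd207 macrophages it marked 0 and 1, so no cell was removed on its account. The libraries shared 1 barcode, which was not one of these cells.

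The Marco/Cd163 macrophages are the natural partner for describing what else the Mmp12/Cd207 macrophages expressed, since both pass every other step. Relative to them, the control Mmp12/Cd207 macrophages had more of the lipid-associated macrophage genes Gpnmb, Cd63, Cd9, Fabp5, Lgals3 and Trem2, of the proton pump subunit Atp6v0d2, of the chemokines Cxcl14 and Ccl9 and of the interleukin-1 receptor antagonist Il1rn. They had less of the lectin Cd209f, of ficolin A (Fcna), of the purinergic receptor P2ry12, of the complement genes C4b, Cfb and C3 and of Timd4, the phosphatidylserine receptor of resident Kupffer cells. Clec4f (0.989-fold), Vsig4 (0.972-fold), a complement receptor, and Clec1b (1.11-fold) were at near-equal levels. For Clec4f the rule set the same lowest share in both kinds of cell. Of 8524 genes with at least 20 UMIs over both sides, 7.64% were at least 2-fold higher and 4.54% at least 2-fold lower, and at the 1.5-fold limit used for gene lists 15.8% were higher and 14% lower, with an all-gene median log2 ratio of -0.00. The Mmp12/Cd207 cells were the deeper ones, with a median of 21809 UMIs against 10673.5.

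Of the 25 lipid-associated macrophage genes, all of which were measured, 18 were at least 1.5-fold higher and 0 lower, and the median log2 ratio was 1.34. Without Mmp12, which the rule used, these were 17 of 24 and 1.23. Gpnmb, a transmembrane glycoprotein of lysosomes, was counted in 57 of the 151 cells and reached 5143 CPM, against 4 of 36 cells and at most 209 CPM in the Marco/Cd163 macrophages, and its medians were 0 in both. Summed over cells it stood at 269.6 CPM against 22.2 CPM, a ratio of 12.1-fold (95% counting interval 6.57 to 25.4). Most cells had none of it, and the 15 cells that had most held 80.9% of its UMIs.

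Fabp5, a fatty acid binding protein, had a median of 679 CPM per cell (0 to 8350) against 50.4 CPM (0 to 3982) in the Marco/Cd163 macrophages. Its summed ratio was 3.27-fold (95% counting interval 2.83 to 3.79), and the groups overlapped. Cd63, a tetraspanin of late endosomes, had a median of 1131 CPM (0 to 4290) against 109 CPM (0 to 1996), and a ratio of 4.22-fold (95% counting interval 3.56 to 5.05). Lgals3, or galectin-3, had a median of 1902 CPM (0 to 11844) against 658 CPM (0 to 2198), and a ratio of 3.07-fold (95% counting interval 2.77 to 3.41). Trem2 had a median of 1141 CPM (0 to 2819) against 237 CPM (0 to 1391), with a ratio of 2.66-fold (95% counting interval 2.31 to 3.09). In each of these 4 genes the typical Mmp12/Cd207 macrophage stood above the typical Marco/Cd163 macrophage, yet single cells of both kinds covered the low end of the range.

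The tetraspanin Cd9 was at 205 CPM against 55.5 CPM (3.7-fold), lipoprotein lipase Lpl at 3324 CPM against 1578 CPM (2.11-fold), the actin-capping protein gene Capg at 421 CPM against 144 CPM (2.92-fold) and galectin-1 (Lgals1) at 549.9 CPM against 215 CPM (2.55-fold). The integrin gene Itgax, which encodes CD11c, was 2.54-fold higher and the protease gene Ctsl 2.18-fold higher, while Apoe, the apolipoprotein, at 1.46-fold stayed under the 1.5-fold limit. Of 29 measured lysosome genes, 5 were higher and 0 lower (median log2 ratio 0.21), namely Cd63, Glb1, Ctsl, Gusb and Ctsz, a share of higher genes close to the 15.8% of all genes. Atp6v0d2, a subunit of the proton pump that acidifies lysosomes, was counted in 73 of 151 against 4 of 36 cells and reached 1593 against 242 CPM, at a summed ratio of 10.7-fold (95% counting interval 5.42 to 25.01). Fatty acid uptake and oxidation genes had 12 of 29 higher and 2 lower with a median of 0.06, and the higher ones included Fabp5, Fabp4, Lpl, Cd36 and Plin2, the coat protein of lipid droplets.

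**Figure D2:**
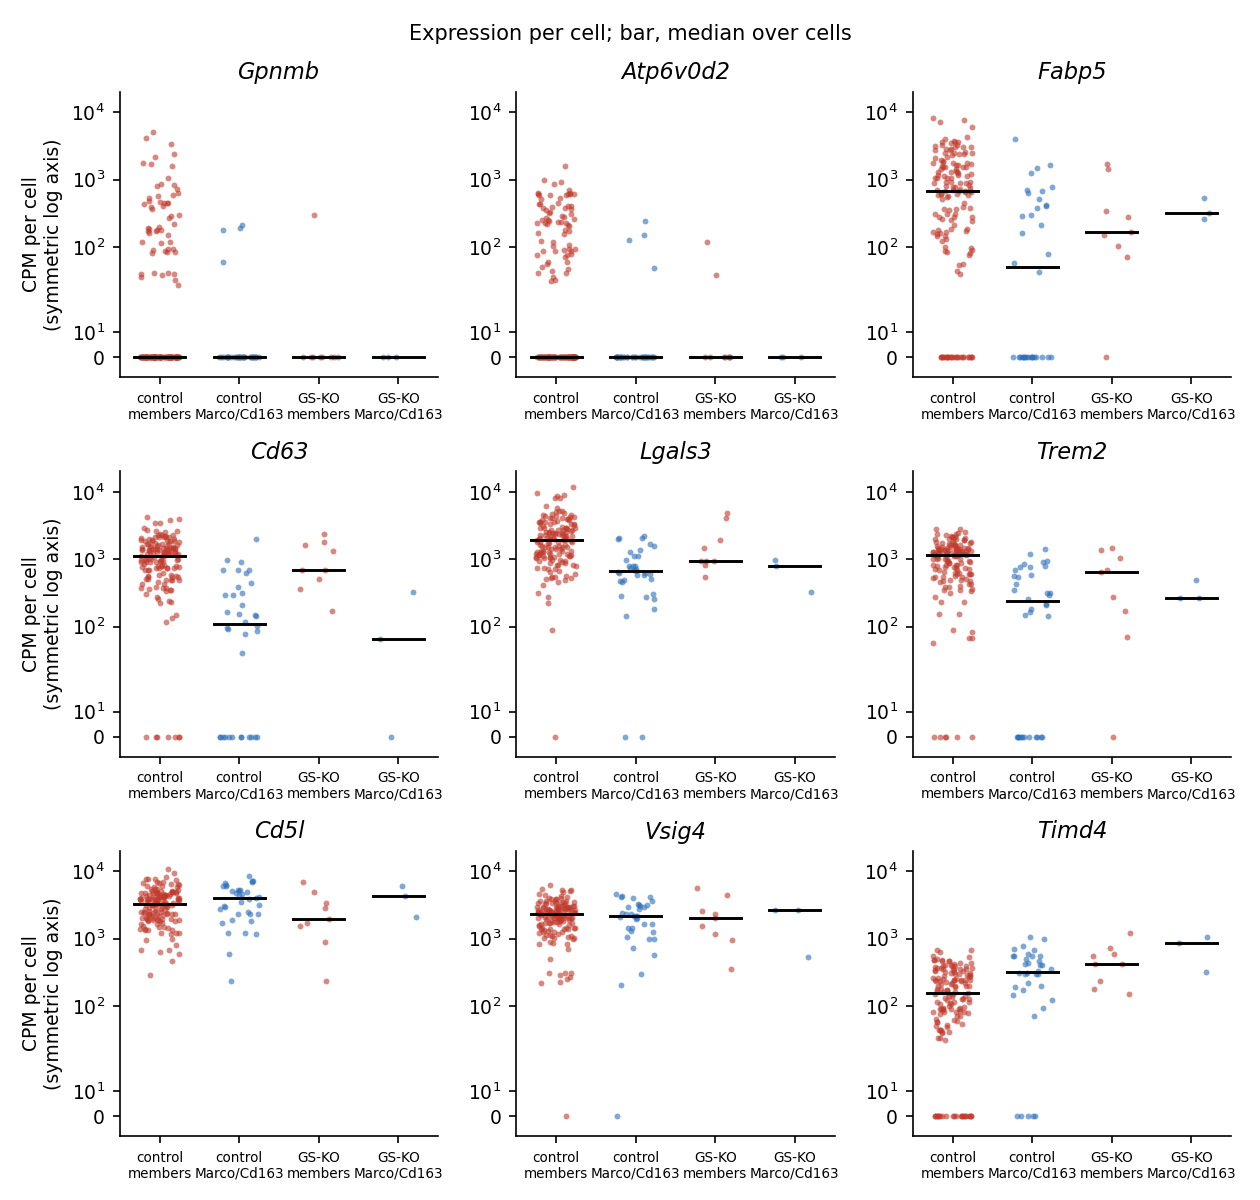
CPM (symmetric log axis) in each cell for 9 genes, with the median as a bar, for the members (the Mmp12/Cd207 macrophages) and the Marco/Cd163 macrophages of the control and GS-KO libraries. Gpnmb and Atp6v0d2 were present in a minority of cells, Fabp5, Cd63, Lgals3 and Trem2 had higher medians in control members than in control Marco/Cd163 cells, and Cd5l and Vsig4 overlapped fully.

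Among 11 measured matrix metalloproteinase, ADAM and inhibitor genes, 6 were higher and 0 lower (median log2 ratio 0.63, or 0.56 with 5 higher when genes at 0 are set to 3 UMIs). Mmp12 itself was chosen by the rule, and without it 5 of 10 were higher and 0 lower (median 0.54). In the GS-KO library 0 of 3 were higher and 1 lower without Mmp12. Collagenase 3 (Mmp13) was counted in 45 of 151 cells and 1 of 36 cells, with 147 UMIs against 1, a ratio of 20.9-fold (95% counting interval 3.7 to 832). The protease gene Adam8 had 132 UMIs in 35 cells and 0 in the Marco/Cd163 macrophages, at least 6.26-fold higher when 3 UMIs are allowed for the 0.

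Of 18 measured chemokine and receptor genes, 6 were higher and 2 lower, with a median log2 ratio of 0.24. Cxcl14 stood at 169 CPM against 13.3 CPM, a ratio of 12.7-fold (95% counting interval 5.79 to 34.7), and was counted in 101 of 151 cells. Ccl9 stood at 80.9 CPM against 4.44 CPM, a ratio of 18.2-fold (95% counting interval 4.99 to 151), and Ccl6 at 958 CPM against 444 CPM (2.16-fold). Ccl24, an eosinophil attractant, was on the other side at 116 CPM against 457 CPM, or 3.94-fold (95% counting interval 3.31 to 4.69) lower. Il1rn, which blocks the interleukin-1 receptor, had 324 UMIs in 69 cells against 1 UMI, a ratio of 46.1-fold (95% counting interval 8.22 to 1828), and its 15 highest cells held 71.0% of its UMIs. The secreted kinase gene Fam20c was at 124 CPM against 19.98 CPM, a ratio of 6.2-fold (95% counting interval 3.23 to 13.7). Igfbp7 and Ebag9 were at 0 UMIs in the Marco/Cd163 macrophages and at least 3.51-fold and 3.08-fold higher, and Igfbp7 came from only 9 cells, 1 of which held 40.5% of its UMIs. Retnla had 690 UMIs, all in 1 control cell, and describes that cell alone.

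Of 21 Kupffer identity genes, all measured, 0 were at least 1.5-fold higher and 8 were lower, with a median log2 ratio of -0.36. Marco and Cd163 were among the 8 by the rule, and the other 6 were Fcna, Timd4, Cd38, Folr2, Paqr9 and Cdh5. Without Clec4f, Marco and Cd163, which the rule used, 6 of 18 were lower and 0 higher (median -0.36). Timd4 had a median of 156 CPM per cell (0 to 686) against 321 CPM (0 to 1073), and summed to a ratio 1.92-fold (95% counting interval 1.61 to 2.28) lower. Fcna, a soluble pattern recognition protein, was at 587 CPM against 1689 CPM, 2.88-fold (95% counting interval 2.64 to 3.13) lower. The folate receptor gene Folr2 was at 321 CPM against 504 CPM and the ectoenzyme gene Cd38 at 154 CPM against 286 CPM. Cd5l, a secreted scavenger protein of Kupffer cells, had a median of 3322 CPM (284 to 10878) against 4001 CPM (232 to 8635) with a summed ratio of 0.839, and Nr1h3, the LXR-alpha gene, had a ratio of 0.989. So 13 of the 21, Vsig4, Cd5l, Clec1b and Nr1h3 among them, were within 1.5-fold. Clec4f was also among the 13, but the rule set a lowest share for it in both kinds of cell.

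Complement genes had 6 of 17 lower and 3 higher (median log2 ratio -0.15, or -0.36 without the 3 C1q genes of the rule). C4b was at 79.0 CPM against 195 CPM (2.47-fold (95% counting interval 1.92 to 3.16) lower), C3 at 48.7 CPM against 162 CPM, factor B (Cfb) at 30.02 CPM against 155 CPM and properdin (Cfp) at 452 CPM against 786 CPM. The receptors C5ar1 (2.3-fold) and Itgax went the other way. Iron and haem genes had 6 of 16 lower and 1 higher (median -0.28). Hmox1, which breaks down haem, was at 806 CPM against 1467 CPM (1.82-fold (95% counting interval 1.67 to 1.98) lower). Cd163 is lower on this list by the rule, and without it 5 of 15 were lower and 1 higher (median -0.19). Interferon response genes had 8 of 45 lower and 2 higher (median -0.19), against the 14% of all genes that were lower. Among the lower genes named by the fixed rule, Cd209f had 3 UMIs in 2 of 151 cells against 51 in 9 of 36 cells (119-fold (95% counting interval 38.6 to 598) lower). Most Marco/Cd163 macrophages thus had none of it. Further named lower genes were P2ry12 with 36 UMIs against 25 (4.88-fold (95% counting interval 2.81 to 8.35) lower), Adgre4 with 46 against 21 and the guanylate binding protein Gbp2b with 550 against 171 (2.18-fold (95% counting interval 1.83 to 2.6) lower). Gstm3, Hmgb2, Ssh2, Rnf141, Rnf114 and Gbp4 completed them at 2.63-, 2.31-, 2.47-, 2.44-, 2.23- and 2.87-fold lower, and the direction of Gbp4 turned when every cell was thinned to 3000 UMIs. Hepatocyte genes, which reach every droplet as free RNA, summed to 1526 CPM in the Mmp12/Cd207 and 2062 CPM in the Marco/Cd163 macrophages, and 17 of 27 were lower. The part of free RNA in the lower genes was not tested.

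Since the deeper cells have more chances to show a gene, each cell was also thinned to 3000 UMIs. Trem2 was then counted in 85.4% (exact Clopper-Pearson interval 78.8 to 90.6) of the control Mmp12/Cd207 macrophages against 52.8% (35.5 to 69.6) of the Marco/Cd163 macrophages, and in 96.0% and 66.7% before thinning. The share for Cd63 was 85.4% against 47.2% (30.4 to 64.5), for Fabp5 70.2% (62.2 to 77.4) against 30.6% (16.3 to 48.1), and for Gpnmb 21.9% (15.5 to 29.3) against 8.33% (1.75 to 22.5). B cells, with a median of 3852.5 UMIs, served as a rough guide to free RNA. Their thinned shares were 3.19% for Trem2, 3.68% for Cd63, 5.88% for Fabp5 and 0.490% for Gpnmb. The shares in both kinds of macrophage stood above this level, except that the interval of Gpnmb in Marco/Cd163 macrophages reached 1.75%. Whether B cells made some of this RNA themselves was not tested. Colec12, a collectin and scavenger receptor that came with the rule as a marker, was counted after thinning in 59.6% (51.3 to 67.5) against 19.4% (8.19 to 36.0), and summed to a ratio of 2.42-fold (95% counting interval 1.89 to 3.13).

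The same contrast in the GS-KO library rests on 9 against 3 cells and on 955 genes, of which 16.4% were at least 2-fold higher and 5.13% at least 2-fold lower (28.2% and 15.5% at 1.5-fold, median log2 ratio 0.11). Of 28 genes that were at least 2-fold higher in the control and had at least 20 UMIs over both sides in each library, 26 had a ratio above 1 in the GS-KO cells, and of 5 at least 2-fold lower all 5 were below 1. Without the genes of the rule these were 24 of 26 and 4 of 4, where 53.5% of the 948 genes measured in both libraries were above 1 and 46.5% below it in the GS-KO cells. The lipid-associated list had 11 of 19 higher and 0 lower, with a median of 0.90, or 10 of 18 and 0.83 without Mmp12. The Kupffer identity list had 3 of 16 higher and 5 lower with a median of -0.13, which became 0.18, with 3 of 14 higher and 4 lower, without the genes of the rule, so it shows no direction here. Cd63 had a median of 699 CPM over the 9 cells (169 to 2367) and stood at 0, 65.5 and 325 CPM in the 3 Marco/Cd163 macrophages. Trem2 had 634 CPM (0 to 1480) against 261.8, 266 and 487 CPM, and Fabp5 169 CPM (0 to 1716) against 261.8, 325 and 533 CPM. The order of the medians for Fabp5 was thus the reverse of the control library, with overlapping cells.

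The 574 control cells removed by the limit on Cx3cr1, Ccr3 and Gfra2 form a larger set of Clec4f-positive macrophages for comparison, with a median of 19135 UMIs, close to the 21809 of the Mmp12/Cd207 cells. This set was chosen after its size was known. Against it the Mmp12/Cd207 macrophages again had more Gpnmb, Atp6v0d2, Fabp5, Cd63, Trem2 and Colec12, and less of the lectins Cd209f and Cd209g, of Cxcl13, Fcna and Ccl24 and of some interferon response genes, among them Ifi27l2a and Irf7. Of 11019 genes, 2.43% were at least 2-fold higher and 6.33% at least 2-fold lower, and 5.86% and 15.8% at 1.5-fold, with an all-gene median log2 ratio of -0.15. Both comparisons share the 151 control cells, so their values are set side by side and not counted as separate evidence.

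The lipid-associated list had 20 of 25 higher and 1 lower (Spp1, osteopontin, with 19 against 307 UMIs), with a median log2 ratio of 1.01, or 19 of 24 and 0.99 without Mmp12. Gpnmb was at 269.6 CPM against 30.5 CPM (8.83-fold (95% counting interval 7.79 to 10.0)), Atp6v0d2 at 191 CPM against 30.4 CPM (6.29-fold (95% counting interval 5.5 to 7.19)) and Fabp5 at 1392 CPM against 254 CPM (5.48-fold (95% counting interval 5.23 to 5.75)). Trem2 was 3.24-fold, Colec12 3.47-fold, Cd63 3.64-fold, Cd9 3.1-fold and Lgals3 2.81-fold higher. Lysosome genes had 10 of 29 higher and 0 lower (median 0.37), among them Cd63 and the proteases Ctsd (1.95-fold) and Ctsl (1.8-fold). Thinned to 3000 UMIs, Trem2 was counted in 40.8% of the 574 cells, Cd63 in 37.3%, Fabp5 in 25.8% and Gpnmb in 2.79%, all below the shares of the Mmp12/Cd207 macrophages.

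Other genes named as higher were Fam20c (5.18-fold), Adam8 (5.34-fold), the C-type lectin Clec4d (5.04-fold (95% counting interval 4.04 to 6.3)), the creatine transporter Slc6a8 (4.99-fold), Syngr1 (5.05-fold), Shisa9 (6.44-fold) and the lipase Mgll (4.9-fold). The stress cytokine Gdf15 was 4.06-fold higher with 36.2% of its UMIs in 1 cell, and Ccl12 6.6-fold with 77.6% in 1 cell. All UMIs of Retnla and Saa3 came from 1 cell, and both genes were lower without the cells that held RNA of other types. Chemokine genes had 11 of 23 higher and 6 lower (median 0.49), or 11 of 22 and 5 without Cx3cr1, which the rule used. Cxcl14 was 2.73-fold and Ccl9 3.21-fold higher, the receptor gene Cxcr4 was at 97.96 CPM against 34.2 CPM (2.87-fold), and the B cell attractant Cxcl13 had 8 against 899 UMIs (30.8-fold (95% counting interval 15.6 to 71.7) lower). Mmp13, high against the Marco/Cd163 macrophages, was at 46.5 CPM against 39.1 CPM here, a ratio of 1.19-fold (95% counting interval 0.979 to 1.43). Without Mmp12, metalloproteinase, ADAM and inhibitor genes had 5 of 14 higher and 3 lower (median 0.35).

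On the lower side, Cd209f had 3 against 1279 UMIs (117-fold (95% counting interval 39.9 to 568) lower) and Cd209g 1 against 371 (102-fold (95% counting interval 18.2 to 4032) lower), both lectins of the DC-SIGN family. Cd209f was counted in 157 of the 574 cells, so most of them also had none. Fcna was at 587 CPM against 2380 CPM (4.05-fold (95% counting interval 3.87 to 4.25) lower), Adgre4 at 14.5 CPM against 123 CPM (8.48-fold (95% counting interval 6.33 to 11.6) lower), Plbd1 at 27.8 CPM against 152 CPM and Art2b at 8.53 CPM against 69.1 CPM. Etv1, an ETS transcription factor gene, was 9.64-fold, Adgrl3 10.2-fold, Icos 7.1-fold and BC035044 6.91-fold lower. Kupffer identity genes had 11 of 21 lower and 0 higher (median -0.60), or 9 of 18 lower (median -0.50) without Clec4f, Marco and Cd163, which the rule used, with Spic, a factor of haem-handling macrophages, at 107 CPM against 217 CPM. Interferon response genes had 21 of 46 lower and 1 higher (median -0.58), against 15.8% of all genes lower. Ifi27l2a was at 764 CPM against 1618 CPM, Irf7 at 148 CPM against 283 CPM and Iigp1 at 30.02 CPM against 88.5 CPM, and the 1 higher gene was Cxcl9 (303 CPM against 104 CPM, 38.5% of it in 1 cell). Cell cycle genes had 15 of 23 lower and 0 higher (median -1.002), or 13 of 21 without Mki67 and Top2a, including Ccnd1 at 14.5 CPM against 69.3 CPM, though the rule had already limited Mki67 and Top2a in both sets. Haem-related Hmox1 was at 806 CPM against 1599 CPM, and 6 of 17 iron and haem genes were lower. Without Cd163, which the rule used, 5 of 16 were lower and 1 higher, against the 15.8% of all genes that were lower.

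**Figure D3:**
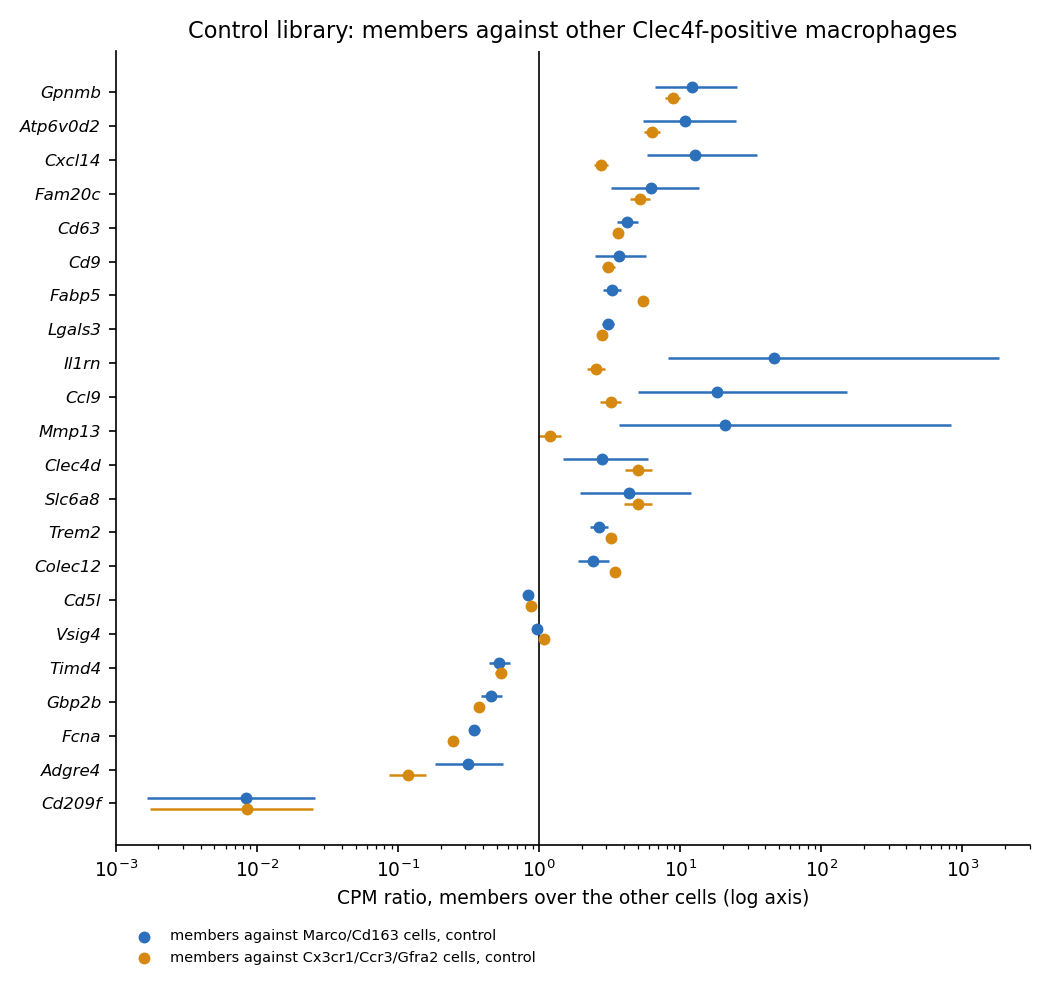
Ratio of summed CPM (log axis) of the 151 control members (the Mmp12/Cd207 macrophages) over 36 Marco/Cd163 macrophages (blue) and over 574 Cx3cr1/Ccr3/Gfra2 macrophages (orange), with 95% counting intervals as bars. Gpnmb stood at 12.1 and 8.83 and Cd209f below 0.1 in both, Cd5l and Vsig4 lay near 1, and Mmp13 stood at 20.9 against the first set and 1.19 against the second.

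In the GS-KO library the comparison of the 9 with 32 such cells had 11% of 4478 genes at least 1.5-fold higher and 30.9% lower, with an all-gene median of -0.21. The lipid-associated list had 10 of 20 higher and 0 lower (median 0.57), or 9 of 19 (0.54) without Mmp12, and the Kupffer identity list 2 of 21 higher and 8 lower (median -0.24), or 2 and 7 of 18 (-0.26) without the genes of the rule. Of the genes at least 2-fold apart in the control and with at least 20 UMIs in each library, 33 of 47 higher and 92 of 102 lower genes had the same direction in the GS-KO cells. Without the genes of the rule these were 31 of 45 and 87 of 97, where 38.4% of the 4465 genes measured in both libraries were above 1 and 61.6% below it.

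The 151 control cells varied among themselves. The 15 cells with most Mmp12 held 44.6% of its UMIs, those with most Cd207 56.0%, those with most Trem2 23.9% and those with most Clec4f 20.3%, so Trem2 and Clec4f were spread more evenly than Mmp12 and Cd207. The rule set a lowest share for Clec4f and for the C1q genes, and a sum for Mmp12 and Cd207. So the spread of these genes, and their correlations with each other, come partly from the rule. Correlations are Spearman's rho over these 151 cells of 1 library, which share that library and differ in depth, and are given as a description, with the value after thinning to 3000 UMIs in parentheses. Among 1921 genes, Mmp12 went most closely with Capg at 0.54 (0.36), Lgals3 at 0.49 (0.45) and Lgals1 at 0.48 (0.32). It went most strongly against Hpgd, which degrades prostaglandins, at -0.49 (-0.32), and against C1qc at -0.44 (-0.26) and C1qa at -0.42 (-0.32). Mmp12 and Cd207 themselves had a rho of -0.04 (0.01), and the gene nearest to Cd207 was Emp3 at 0.39 (0.24). The rule chose cells on the sum of these 2 genes, which by itself lowers the rho between them, so nothing is read from that value.

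Trem2 went with the lysosomal protease Ctsd at 0.61 (0.43), with Fabp5 at 0.55 (0.38) and with Cd63 at 0.51 (0.29). Fabp5 went with Atp6v0d2 at 0.59 (0.43) and with Cd63 at 0.54 (0.44), and Lgals3 with Cd63 at 0.58 (0.42). Clec4f went with C1qa at 0.60 (0.51), Cd5l at 0.55 (0.35) and C6, the complement component, at 0.50 (0.38), and against the ferritin gene Fth1 at -0.51 (-0.47) and Lgals3 at -0.49 (-0.31). Summed per cell, the lipid-associated list without Mmp12 and Apoe ran from 13642 through a median of 34002 to 80140 CPM and the Kupffer identity list without the rule's genes from 4420 through 12926 to 28318 CPM, and their rho was -0.29.

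**Figure D4:**
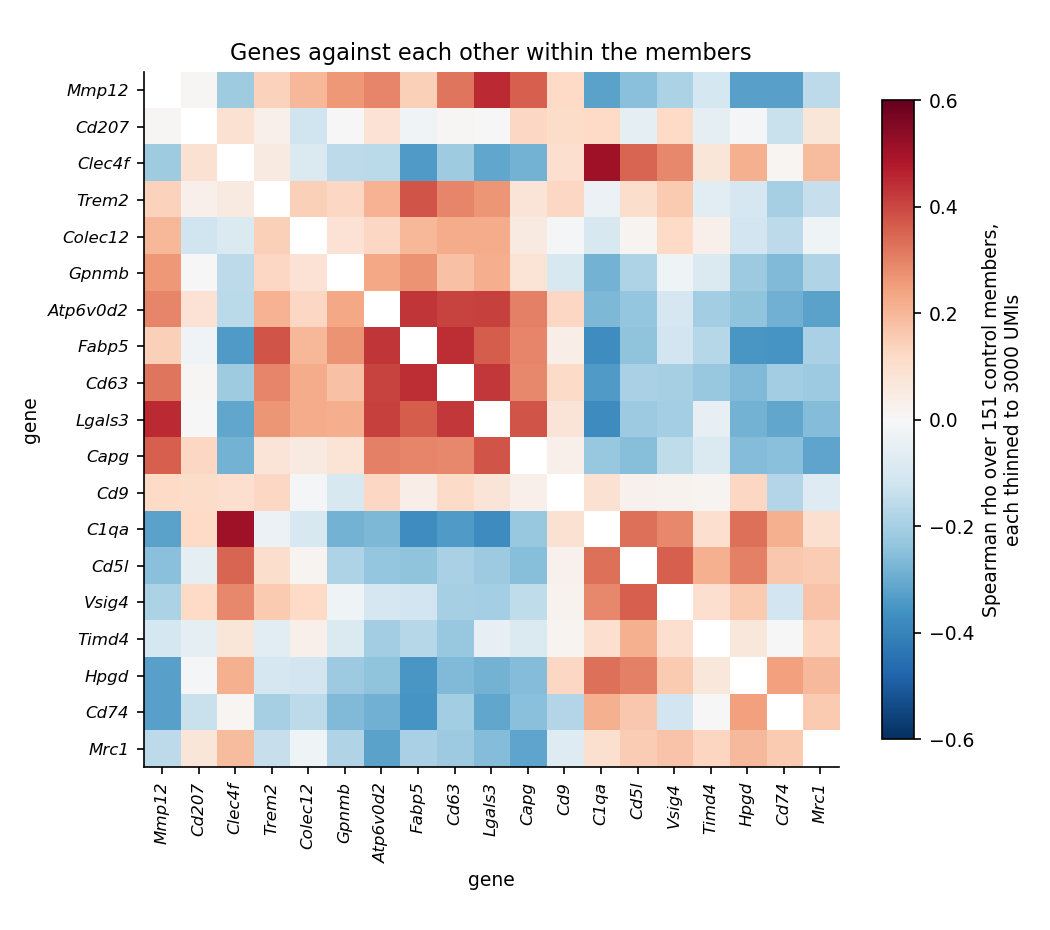
Spearman's rho (colour, from -0.6 to 0.6) between 19 genes over the 151 control members (the Mmp12/Cd207 macrophages), each cell thinned to 3000 UMIs. Atp6v0d2, Fabp5, Cd63 and Lgals3 form a block of positive values, Clec4f goes with C1qa and Cd5l, and the row of Cd207 is near 0.

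The 112 cells with more Mmp12 than Cd207 and the 35 with more Cd207 had similar depths, with medians of 21905.5 and 20132 UMIs. Of 8162 genes, 13.3% were at least 1.5-fold higher in the first and 7.2% lower. In the first, 9 of 23 lipid-associated genes, counted without Mmp12, were at least 1.5-fold higher and 0 lower (median log2 ratio 0.48, over all genes 0.04), and 11 of 18 glycolysis genes were higher and 1 lower (median 0.64). Kupffer identity genes had 1 of 21 higher and 3 lower (median -0.30) and interferon response genes 2 of 45 higher and 9 lower (median -0.30). Hmox1 was at 945 against 368 CPM, Lgals1 at 635 against 278 CPM and Cd274, the checkpoint ligand PD-L1, at 40.5 against 7.17 CPM. Fabp4 was at 94.0 against 12.9 CPM, with 30.7% of the first in 1 cell. In the Cd207-led cells Hpgd was at 1273 against 763 CPM, the selenium carrier Selenop at 1844 against 1182 CPM, C6 at 509 against 308 CPM and Cdh5 at 204 against 101 CPM. This split uses the genes of the rule, and its values are a description.

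Between the libraries, the 9 GS-KO cells had higher levels than the 151 control cells of the heat shock genes Hspa1b, Hspa1a and Dnaja1 and of the immediate early gene Fos, and lower levels of Gpnmb, Atp6v0d2, Fabp5 and Lyz2. Trem2, Cd63, Lgals3 and Cd9 were within 1.5-fold, as were Cd5l, Vsig4 and Clec4f, for which the rule set a lowest share. Of 8272 genes with at least 20 UMIs over both, 7.87% were at least 2-fold higher and 25.5% at least 2-fold lower, and 16.5% and 34.6% at 1.5-fold, with an all-gene median log2 ratio of -0.17. Of the 8272 genes, 1286 had 0 UMIs in the GS-KO cells, where 0.72 UMIs would be expected for a gene with 20 control UMIs at equal CPM. With those genes set to 3 UMIs, which by construction places rarely counted genes higher, the all-gene median was 0.13. The part of depth in the number of lower genes was not tested. The whole counting interval lay at 2-fold or more for 24 higher genes, 14 of which had most of their GS-KO UMIs in 1 cell, and for 11 lower genes, 1 of which had most of its control UMIs in 1 cell.

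Fos was at 1202 CPM against 446 CPM (2.69-fold (95% counting interval 2.24 to 3.21)), and the 9 cells held 51, 62, 11, 0, 1, 12, 0, 0 and 0 UMIs, so that 2 cells carried most of it. Hspa1b was at 395 CPM against 74.9 CPM (5.27-fold (95% counting interval 3.75 to 7.28)), with 19, 13, 4, 4, 0, 0, 0, 4 and 1 UMIs. Hspa1a was 3.4-fold and the chaperone gene Dnaja1 2.49-fold higher. Heat shock genes had 5 of 17 higher and 2 lower (median log2 ratio 0.24, or 0.34 with 1 gene at 0 set to 3 UMIs), and immediate early genes 7 of 22 higher and 3 lower (0.25, or 0.34). These genes respond to tissue digestion and cell handling, and the GS-KO library had the higher mitochondrial share over all barcodes, 25.3% against 5.61%, while within the cells described here the medians were 2.73% and 3.15%. The part of handling was not tested. The cold-induced RNA binding gene Rbm3 was 3.82-fold, Cytip 6.79-fold, Fibp 4.2-fold, Polr2l 3.85-fold, Ddx39 3.97-fold and Crip1 2.18-fold higher.

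Among lipid-associated genes 1 of 24 was higher, Mmp12, which the rule used, and 7 were lower (median log2 ratio -0.14). Of all genes 34.6% were lower and the all-gene median was -0.17, so the share of lower genes on the list was no larger than in general, and the values below are of single genes. Gpnmb was at 43.9 CPM against 269.6 CPM (6.14-fold (95% counting interval 2.62 to 19.0) lower), and all 5 UMIs came from 1 of the 9 cells. Atp6v0d2 was at 26.3 CPM against 191 CPM (7.25-fold (95% counting interval 2.47 to 35.2) lower) with 3 UMIs. Of the 151 control cells, only 57 had Gpnmb and 73 Atp6v0d2. After thinning, Gpnmb was counted in 11.1% (exact Clopper-Pearson interval 0.281 to 48.2) of GS-KO cells, against 21.9% (15.5 to 29.3) of control cells. For Atp6v0d2 the shares were 11.1% (0.281 to 48.2) and 23.8% (17.3 to 31.4). These intervals overlapped, so the shares of cells with either gene did not separate the libraries. Fabp5 was at 448 CPM against 1392 CPM (3.11-fold (95% counting interval 2.36 to 4.18) lower), and the 9 cells held 4, 4, 29, 1, 1, 2, 2, 8 and 0 UMIs. The control cells spanned 0 to 8350 CPM of Fabp5 and the GS-KO cells 0 to 1716 CPM, so the groups overlapped.

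Trem2 held 39, 15, 23, 1, 10, 2, 1, 0 and 3 UMIs in the 9 cells and stood at 825 CPM against 1153 CPM (0.716-fold (95% counting interval 0.577 to 0.878)). Cd63 held 48, 4, 40, 10, 13, 5, 3, 2 and 7 (0.909-fold (95% counting interval 0.758 to 1.08)) and Lgals3 51, 22, 82, 21, 9, 6, 24, 3 and 4 (0.729-fold (95% counting interval 0.635 to 0.833)). Colec12 was at 202 CPM against 370.0 CPM (0.546-fold (95% counting interval 0.344 to 0.823)). Lysosome genes had 0 of 29 higher and 8 lower (median -0.14), also no larger a share than the 34.6% of all genes, with Ctsd at 4108 CPM against 7115 CPM and Lipa, the lysosomal lipase, at 808 CPM against 1390 CPM. Kupffer identity genes had 4 of 21 higher and 3 lower (median 0.02, or -0.06 without the genes of the rule), and Timd4, present in all 9 cells, was at 439 CPM against 192 CPM (2.28-fold (95% counting interval 1.68 to 3.05)). Mmp12 (1.8-fold) and Cd207 (2.41-fold) were higher in the GS-KO cells, but both chose the cells.

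Lysozyme (Lyz2) was at 4942 CPM against 11874 CPM, 2.4-fold (95% counting interval 2.21 to 2.62) lower, and was the lower gene with the narrowest interval of those named. The hyaluronan receptor gene Cd44 was at 70.2 CPM against 227 CPM (3.23-fold (95% counting interval 1.63 to 7.5) lower), and Mien1 was at 52.7 CPM against 187 CPM (3.56-fold (95% counting interval 1.63 to 9.74) lower). Genes at 0 in the GS-KO cells were at least 5.68-fold lower for Ccl5, 4.39-fold for the platelet-activating factor receptor Ptafr, 3.78-fold for Cxcl2, 3.78-fold for the TNF receptor Tnfrsf1b and 2.52-fold for Pkp4, with 3 UMIs allowed for the 0. Anxa7, Gyg, Git2 and Amz1, also at 0, were at least 2.29-, 2.22-, 2.18- and 2.09-fold lower. In the control cells, however, Ccl5 was counted in only 34 cells and Cxcl2 in only 20, and 1 cell held 38.5% and 49.8% of their UMIs. Cxcl2 was higher in the GS-KO cells when the limit on Cx3cr1, Ccr3 and Gfra2 was set as a share of UMIs. Chemokine genes had 2 of 18 higher and 9 lower with a median of -0.44, which became 0.26 with 5 lower when the 6 genes at 0 were set to 3 UMIs, so the list shows no direction at this depth. Ccl24 and Ccl4 were higher, with 77.1% and 63.3% of their GS-KO UMIs in 1 cell. Glutamine and glutamate genes had 2 of 21 higher and 9 lower (median -0.44, or -0.36), and each of the 9 rested on 4 or fewer GS-KO UMIs.

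**Figure D5:**
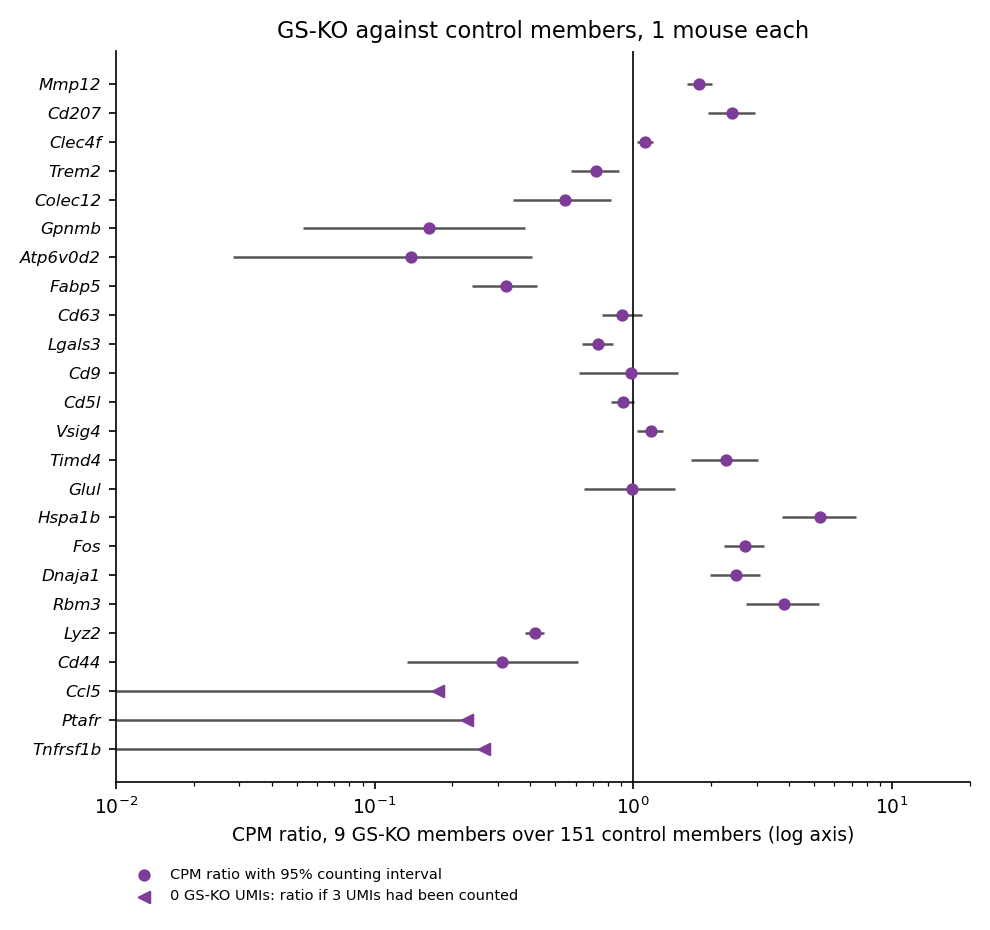
Ratio of summed CPM (log axis) of the 9 GS-KO over the 151 control members (the Mmp12/Cd207 macrophages), 1 mouse each, with 95% counting intervals as bars; triangles mark genes with 0 GS-KO UMIs at the ratio that 3 UMIs would give. Gpnmb, Atp6v0d2 and Fabp5 lay below 1, Hspa1b, Fos, Dnaja1 and Rbm3 above it, and Glul, Cd63 and Cd9 had intervals that included 1.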

How the data were processed

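Single-cell RNA was measured in 2 liver libraries of 1 mouse each. The deposited matrices hold UMI counts per gene and barcode, not normalized, which the authors made with Cell Ranger on build mm10, per the submitters' processing notes. The matrix headers give software version 3.1.0. The labels name a 3′ chemistry and in 1 place call the library snRNA, which was not settled here.

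Cells, lists and members were chosen with earlier results of these data known, and the Cx3cr1/Ccr3/Gfra2 macrophages were added as a comparison after counts were seen. UMIs were summed over cells and divided by their total to give CPM. Ratios have exact conditional binomial 95% intervals. Lists use log2 ratios with 0.5 counts added on average, a 1.5-fold limit and genes with at least 20 UMIs, and genes at 0 were also set to a floor of 3 UMIs. No test was run, since cells are not replicates and each group has 1 mouse.

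Named genes had at least 50 UMIs and a ratio of 2 or more, ranked by the interval bound nearest 1: 15 each way against other cells (for Marco/Cd163 cells, with the same direction in both libraries) and 12 each way between libraries, without genes that had over 50% of a library's UMIs in 1 cell there. Mitochondrial, ribosomal, haemoglobin, immunoglobulin, sex-linked and hepatocyte genes and unnamed models were left out of the ranking. From each list up to 4 members were named, and the genes of the rule always were. The ranking against Cx3cr1/Ccr3/Gfra2 cells and other genes named within lists were chosen after values were seen. Some genes that the rule named are not reported here. Gene positions come from GENCODE M21, which holds 32158 of the 32285 gene IDs. Sequences come from RefSeq GRCm38.p6. The software was scanpy 1.11.5, scipy 1.17.1 and numpy 2.4.6 under Python 3.11.15, with pandas 2.3.3 for tables and matplotlib 3.10.9 for figures. The counting was tested on simulated data. Alternatives included thinning to 3000 UMIs, other depth and mitochondrial limits, mean CPM per cell and left-out cells.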

Additional observations from a re-analysis of the deposited data

Results flagged for a closer look

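In 4 gene lists the Mmp12/Cd207 macrophages stood on opposite sides of the Marco/Cd163 macrophages in the 2 libraries. The GS-KO side rests on 9 against 3 cells, and the difference between the libraries was not tested in any of the 4. MHC class II genes, which present antigen, had a median log2 ratio of -0.25 for the control, against 0.52 for GS-KO, where H2-Aa and Cd74 were among the 3 of 8 genes at least 1.5-fold higher, against 28.2% of all 955 genes there. MHC class I genes had medians of -0.18 and 0.13, with 2 of 10 higher and 0 lower in the GS-KO library. Immunosuppressive and alternative activation genes had medians of -0.13 and 0.17. The first was -0.05 without Marco, which the rule used, and so under the 0.1 that a list needed to be flagged here. Over all genes of the GS-KO comparison the median was 0.11, close to the 0.13 of MHC class I genes and the 0.17 of this list. Mitochondrially encoded genes had medians of -0.33 and 0.48, with median mitochondrial shares per cell of 3.15% and 2.73% in the Mmp12/Cd207 macrophages and 3.60% and 3.00% in the Marco/Cd163 macrophages. In the GS-KO library the list median and the median shares thus went opposite ways. The highest shares among the 9 cells were 11.6% in the eighth by depth, which held endothelial RNA, and 6.32% in the deepest.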

How the results depend on the processing

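Counts of lipid-associated genes (higher against both other kinds of control macrophage, lower between libraries) and of lower Kupffer identity genes in the control were within 1.5 times of those reported under the 11 alternatives run for them, while counts over all genes moved with the limits used. With the rule applied to cells thinned to 3000 UMIs the control share was 56.1%, and with the limit on Cx3cr1, Ccr3 and Gfra2 set at 0.015% of UMIs 77.8%, against 70.2%. Against Marco/Cd163 cells in the control, 651 genes were at least 2-fold higher and 387 lower. These counts became 380 and 137 with thinned cells, 284 and 133 at a minimum of 50 UMIs, 1370 and 1212 at a ratio of 1.5, and 994 higher with mean CPM per cell. In the GS-KO library 157 and 49 became 32 and 22 with thinned cells, 41 and 14 at 50 UMIs and 275 and 153 at 1.5, with 76 lower under mean CPM and 79 lower under the 0.015% limit. Against Cx3cr1/Ccr3/Gfra2 cells, 268 and 698 became 149 and 418 at 50 UMIs and 653 and 1766 at 1.5. Between libraries, 651 and 2108 became 300 and 732 with thinned cells, 294 and 1171 at 50 UMIs, 17 and 97 at 300 UMIs, and 1399 higher at 1.5. Fewer genes were tested in the thinned and stricter settings. Log2 ratios changed sign for Gbp4 against Marco/Cd163 cells (3.60, thinned), Aatf between libraries (-4.33, thinned), Cxcl2 between libraries (1.04, 0.015% limit), and Retnla (-4.21, or -4.19 with platelet genes counted too) and Saa3 (-2.25, or -2.24) against Cx3cr1/Ccr3/Gfra2 cells without cells holding RNA of other types. The cause was not tested, except that Retnla and Saa3 came from 1 such cell. Over alternatives, 1087 values of named genes stayed within their counting interval, 127 left it and 7, of 5 genes, changed sign. The 0.015% limit, the 300-UMI minimum, the Cx3cr1/Ccr3/Gfra2 comparison and the removal of cells with other RNA were chosen after seeing the data. No paired analysis was possible because each group has 1 sample, and for the same reason no library could be left out. The GS-KO values rest on 9 cells and 113931 UMIs of 1 mouse.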

Other observations

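Several further gene groups were compared between the Mmp12/Cd207 and the Marco/Cd163 macrophages of the control library. Of 22 immediate early genes, 9 were at least 1.5-fold higher in the Mmp12/Cd207 macrophages and 1 lower, with a median log2 ratio of 0.48. The stress factor gene Atf3 was at 207 CPM against 86.6 CPM and the AP-1 gene Junb at 436 CPM against 251 CPM. Of 19 glycolysis genes, 5 were higher and 2 lower (median 0.33), with pyruvate kinase (Pkm) at 446 CPM against 282 CPM and lactate dehydrogenase A (Ldha) at 340.3 CPM against 204 CPM. Glutamine and glutamate genes had 2 of 21 higher and 6 lower (median -0.02), and the glutamate transporter gene Slc1a2 was at 35.4 CPM against 75.5 CPM. Of 25 macrophage transcription factor genes, 2 were higher (Pparg and Batf3) and 3 lower (Klf4, Rxra and Maf), with a median of 0.02. The shares of all genes at 1.5-fold were 15.8% higher and 14% lower. Against the control Cx3cr1/Ccr3/Gfra2 macrophages, glycolysis genes had 3 of 22 higher and 3 lower (median 0.09). Immediate early genes had 6 of 26 higher and 2 lower there (median 0.16), where 5.86% of all genes were higher. In the GS-KO library, genes at 0 were set to 3 UMIs. Against Marco/Cd163 macrophages, 8 of 11 immediate early and 0 of 9 glycolysis genes were then higher (28.2% of all genes). Against Cx3cr1/Ccr3/Gfra2 macrophages, 1 of 20 immediate early genes was higher and 6 lower. Of all 4478 genes there, 492 were higher and 1327 lower, so the share of lower genes on the list was close to that of all genes.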
